A study of Mus musculus with 4 samples.

Results

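Chemokine receptors are cell-surface proteins that couple to inhibitory G proteins and steer a cell along a gradient of small secreted ligands, the chemokines. Each leukocyte type carries its own set, which decides where it can be drawn to. In the brain, CX3CR1 is the fractalkine receptor of microglia, while CCR2, CXCR2, CXCR3, CCR6, CXCR6 and CCR7 are known mainly from leukocytes that come from blood and lymph nodes. Here 9 receptor genes (Ccr1, Ccr2, Ccr6, Ccr7, Cxcr2, Cxcr3, Cxcr4, Cxcr6 and Cx3cr1) were followed across the CD45+ cells of injured mice. They were taken by gene symbol from the 32285 genes measured, and all 9 were found in each of the 8 deposited count matrices.

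The cells were taken in the thalamus and the hippocampus (HPC) of C57B6/J mice with cortical brain injury, which per the methods of the study was a resection of the sensorimotor cortex on 1 side. Live CD45+ cells of the injured hemisphere had been sorted, tagged with multiplexing oligos and profiled by single-cell RNA sequencing (scRNA-seq), which counts unique transcript molecules (UMIs). There were 4 tagged sets per region, each taken as 1 mouse, and no uninjured sample, so that the comparisons were between regions, cell classes and microglial states within injured tissue.

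After filtering, 24939 of 29190 cells with 119958441 UMIs were kept, 11537 in the thalamus and 13402 in the HPC, and the median UMIs per cell of a set were 4261.5 to 4657. No cell barcode was shared between sets of a region, and 49 were shared across regions. Each region had been run as 1 library, and therefore library and region cannot be told apart in any comparison below. Marker genes that included none of the 9 receptors gave 22358 cells (89.7%) a class, written "-like" throughout. These were 18595 microglia-like, 2540 T-like, 699 neutrophil-like, 167 monocyte-like, 116 conventional dendritic-like, 109 natural killer (NK)-like, 61 B-like, 43 migratory dendritic-like and 28 border-associated macrophage-like cells. HPC set 1 stood apart, with 387 of the 434 neutrophil-like and 44 of the 47 B-like cells of its region. The filters kept 80.5% of its cells, 92.9% to 95.6% in the other HPC sets and 80.4% to 87.9% in the thalamus sets. The part of this loss in the region differences was not tested.

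All levels below are UMIs of a gene per 10000 UMIs of the same cells. They compare cell classes for 1 gene and not genes with each other. Intervals are exact Poisson intervals (95%) that cover counting error only, and a value per set needed at least 20 cells. Cx3cr1 was highest in microglia-like cells, Cxcr2, Ccr1 and Cxcr4 in neutrophil-like cells, Ccr2 in monocyte-like cells and Cxcr6 in type 17 gamma-delta-like T cells. Ccr6 was highest in CD4-like T cells (with B-like cells above them under most alternatives), Cxcr3 across the other T-like subsets and Ccr7 in migratory dendritic-like cells. Of all UMIs of a gene in the kept cells, microglia-like cells held 95.1% for Cx3cr1, T-like cells 73.2% for Cxcr6, neutrophil-like cells 68.4% for Cxcr2 and migratory dendritic-like cells 56.4% for Ccr7. For Ccr1 the 18595 microglia-like cells held more (36.2%) than the 699 neutrophil-like cells (23.3%), at a lower level per UMI. Cells without a class held 21.0% of Ccr1, 24.4% of Cxcr6, 30.6% of Ccr2 and 28.3% of Cxcr2 UMIs.

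**Figure D1:**
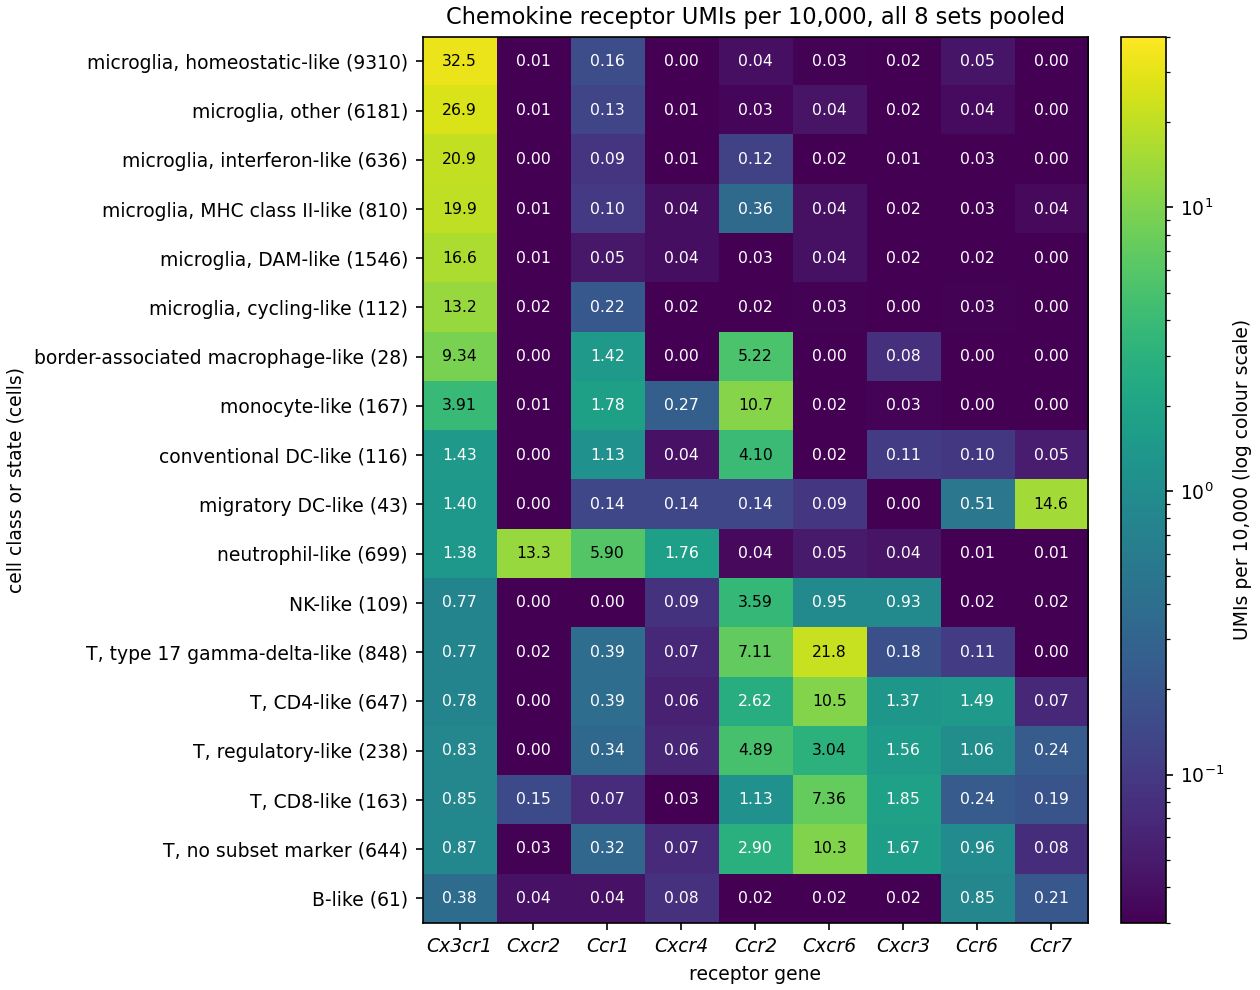
UMIs per 10000 of the 9 receptors (columns) in the cell classes, T-like subsets and microglial states (rows, with the number of cells), all 8 sets pooled, on a log colour scale; values are to be read down a column. Cx3cr1 runs from 32.5 in homeostatic-like microglia to 0.38 in B-like cells, and Cxcr6 is highest at 21.8 in type 17 gamma-delta-like T cells.

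Neighbouring classes in the order of each gene were compared over the sets that held both (two-sided exact sign-flip permutation tests, 89 pairs). None of the 89 passed an adjusted p of 0.05, 8 had an unadjusted p under 0.05, and the smallest adjusted p was 0.232. The smallest p this test can give is 0.0078125 with 8 sets, 0.03125 with 6 and 0.25 with 3. Many pairs therefore could not pass, and the neighbours were ordered by the same values. The count of 0 does not decide the order, which rests on the spread between sets given beside each value.

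Cx3cr1 (chromosome 9, 119901616 to 120069879, minus strand, GRCm38) encodes the receptor of fractalkine, a ligand that in the brain is made mostly by neurons. In microglia-like cells its level was 20.1, 23.7, 25.6 and 23.6 in the thalamus sets 1 to 4, and 28.4, 32.6, 33.1 and 32.4 in the HPC sets. The regions did not overlap, and HPC set 1 was the lowest of its region. Cx3cr1 was lower in the thalamus by a log2 difference of -0.38 (SE 0.085, quasi-likelihood test of edgeR, adjusted p = 0.0196, n = 4 and 4), among 12.2% of 12990 genes called in that comparison. It kept its direction without any single set, but missed the threshold without thalamus set 4, HPC set 2 or HPC set 4 (adjusted p = 0.0596, 0.0667 and 0.0640). A fit blocked on the set number, which called 27.8% of genes, gave -0.39 and an adjusted p of 0.0006.

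Microglial states differ in Cx3cr1, and their shares differed between the regions. States were set by counts of detected marker genes: homeostatic genes such as P2ry12 and Tmem119, genes of disease-associated microglia (DAM) such as Cst7, Lpl and Itgax, interferon-response genes, MHC class II genes and cell cycle genes. Homeostatic-like cells made up 29.5% of microglia-like cells in the thalamus and 65.7% in the HPC, DAM-like cells 16.8% and 1.88%. Over the sets, Cx3cr1 was 31.6 ± 2.56 (SD, n = 8) in homeostatic-like, 27.3 ± 2.92 (n = 8) in other, 23.3 ± 4.52 (n = 8) in interferon-like, 20.4 ± 5.20 (n = 8) in MHC class II-like and 17.6 ± 2.05 (n = 7) in DAM-like microglia. In 8 of 8 sets homeostatic-like exceeded other microglia, other exceeded interferon-like, and interferon-like exceeded MHC class II-like microglia (exact sign-flip tests, p = 0.0078125 each, the smallest the design allows, adjusted p = 0.232).

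The states were then compared within sets across all genes, with the set as a block. Of the 9 receptors, Cx3cr1 and Ccr1 passed the filter on low counts in these comparisons. Cx3cr1 was lower in DAM-like than in homeostatic-like microglia (log2 fold change -0.64, SE 0.073, edgeR adjusted p = 6.09e-08, 7 sets). In the HPC sets alone the adjusted p was 0.00723 at -0.60, and in the thalamus sets alone the log2 fold change was -0.69. It was also lower in interferon-like (-0.35, SE 0.070, adjusted p = 0.000419, 8 sets) and in MHC class II-like microglia (-0.49, SE 0.082, adjusted p = 6.29e-05, 8 sets). These comparisons called many genes, 40.2%, 19.9% and 22.2% of those tested. Their reference cells were gated on homeostatic genes and on few markers of other states. How far Cx3cr1 follows those genes was not tested, so its lower level is not shown to be independent of the gate. The same holds for the order of the states given above. For interferon-like cells the call was lost in the HPC sets alone (adjusted p = 0.0564) and where states were set after thinning every cell to 2000 UMIs (adjusted p = 0.186). The median depth was 4490 UMIs in homeostatic-like, 6422 in DAM-like, 5766 in interferon-like and 5907.5 in MHC class II-like cells.

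Within homeostatic-like microglia, the thalamus sets had Cx3cr1 at 27.4, 30.1, 30.9 and 30.8, and the HPC sets at 30.3, 34.4, 34.0 and 34.7. The regions overlapped only through HPC set 1. The log2 fold change was -0.17 and missed the threshold (edgeR adjusted p = 0.378, and 0.0732 with the block), in a comparison that called 0.593% of 11628 genes. It passed without HPC set 1 (-0.19, adjusted p = 0.0477). None of the 4 other receptors that passed the filter there was called. Within DAM-like microglia the thalamus sets were at 15.9, 16.0, 16.9 and 15.8, and HPC sets 1, 2 and 4 at 19.2, 21.2 and 18.4 (set 3 held too few cells). These did not overlap, and the log2 fold change of -0.28 missed the threshold (adjusted p = 0.153, 1.23% of 9336 genes called) but passed it with the block (-0.31, adjusted p = 0.0391, 2.22% called) and by DESeq2 (-0.28, adjusted p = 0.0499). MHC class II-like cells of the thalamus sets were at 12.7, 17.6, 16.9 and 16.2, those of the HPC sets at 23.5, 26.2, 24.4 and 26.1. There the gap to homeostatic-like cells was wider in the thalamus by -0.37 on the log2 scale (SE 0.098, edgeR test of the difference, adjusted p = 0.0251). The same difference was -0.08 for DAM-like (adjusted p = 0.971) and -0.26 for interferon-like cells (adjusted p = 0.359). Over all genes these tests called 431 of 9783 for MHC class II-like, 13 of 10493 for DAM-like and 186 of 9698 for interferon-like cells. The DAM cut was passed by 2130 cells, of which 1546 were DAM-like. The part of the remaining cells in the MHC class II-like levels was not tested.

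**Figure D2:**
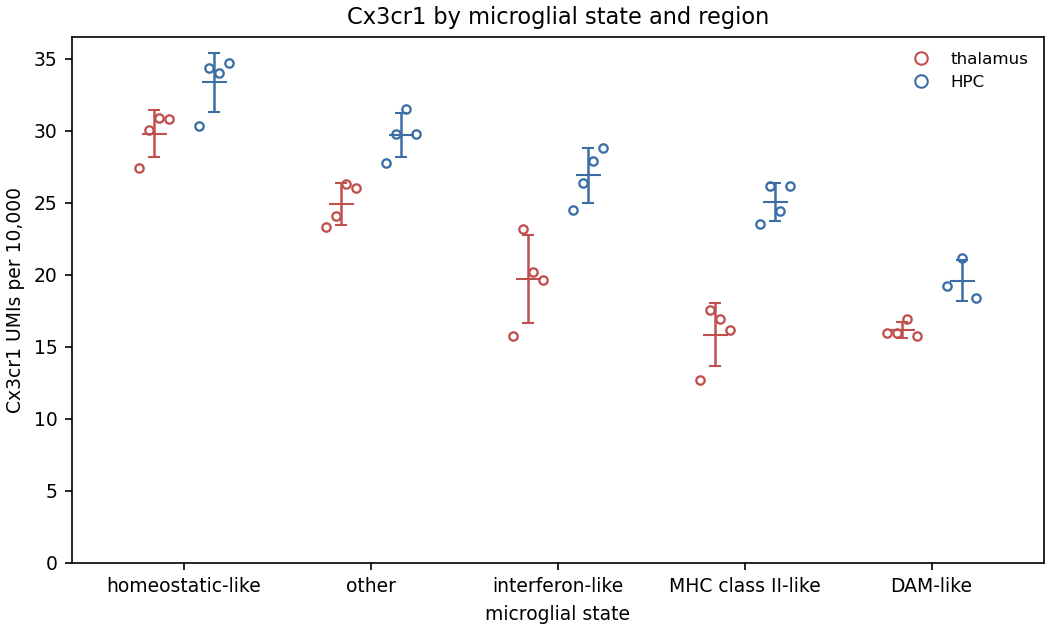
Cx3cr1 UMIs per 10000 in 5 microglial states, with 1 circle per tagged set, red for the thalamus and blue for the HPC; lines are the mean and the SD over sets (n = 4, and 3 for HPC DAM-like cells). The HPC mean is above the thalamus mean in each state, and levels run from 34.7 in homeostatic-like cells of HPC set 4 to 12.7 in MHC class II-like cells of thalamus set 1.

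Outside microglia, Cx3cr1 was 9.34 (interval 7.73 to 11.2) in border-associated macrophage-like and 3.91 (3.57 to 4.27) in monocyte-like cells. The other classes were at 0.381 to 1.43, with T-like cells at 0.808. The 8 microglial markers of the gate summed to 139 in microglia-like and still to 3.6 in type 17 gamma-delta-like T cells and 8.4 in neutrophil-like cells. Cells were thinned to 2000 UMIs each to compare shares, which left out 537 microglia-like, 103 T-like and 403 neutrophil-like cells as too shallow. Then 99.5% of homeostatic-like and 89.9% of DAM-like microglia had a Cx3cr1 UMI (99.96% and 95.8% unthinned), against 14.3% of T-like cells (25.0% unthinned, median depth 3516). Whether the Cx3cr1 UMIs of T-like cells were their own or came from other cells was not tested. Cycling-like microglia (112 cells, 1 set with enough cells) had the lowest pooled microglial level, 13.2 (12.3 to 14.1).

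Neutrophil-like cells carried Cxcr2, Ccr1 and Cxcr4. CXCR2 takes up CXC chemokines such as CXCL1 and CXCL2 and brings neutrophils into tissue, CCR1 binds CCL3 and CCL5 among others, and CXCR4, the receptor of CXCL12, holds neutrophils in the bone marrow and returns aged ones to it. Cxcr2 (chromosome 1, 74153989 to 74161246) was 13.8, 11.0 and 15.3 in HPC sets 1, 2 and 4 and 11.9, 14.8 and 8.69 in thalamus sets 1, 2 and 4, the sets with enough neutrophil-like cells. The regions overlapped, and the log2 fold change was -0.22 (SE 0.24, edgeR adjusted p = 0.999, n = 3 and 3). This comparison called 1 gene, 0.0397% of 2520 tested, and 101 had an unadjusted p under 0.05. In every other class or subset pooled Cxcr2 was at or under 0.149, the level in CD8-like T cells, where all 10 UMIs lay in 1 cell of thalamus set 1.

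Ccr1 (chromosome 9, 123962124 to 123968692) in neutrophil-like cells was 6.21, 5.34 and 6.27 in HPC sets and 5.01, 6.23 and 4.34 in thalamus sets, again overlapping (-0.23, edgeR adjusted p = 0.999). It was next highest in the monocyte-like (1.78, interval 1.55 to 2.03), border-associated macrophage-like (1.42) and conventional dendritic-like (1.13) cells. Cxcr4 (chromosome 1, 128588199 to 128592293) varied between neutrophil-like sets, from 0.196 in HPC set 4 to 2.10 in thalamus set 1, with a mean of 1.22 ± 0.73 (SD, n = 6). Thinned to 2000 UMIs, 76.4% of neutrophil-like cells had a Cxcr2, 61.8% a Ccr1 and 25.0% a Cxcr4 UMI (77.8%, 61.1% and 25.9% unthinned). The 296 of 699 cells that were deep enough give these shares (median of all 1911 UMIs), and in microglia-like cells (median 4736) they were 0.105%, 2.14% and 0.188% (0.307%, 4.07% and 0.532% unthinned). Of the cells with Ccr1, 348 of 427 also had Cxcr2, above the 332 that the shares of both genes give, and no test was made.

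Microglia-like cells had little Ccr1: 0.0967, 0.131, 0.132 and 0.0927 in thalamus sets, 0.147, 0.170, 0.162 and 0.138 in HPC sets. The regions did not overlap. The log2 fold change of -0.41 (SE 0.12) missed the threshold (edgeR adjusted p = 0.0611) and passed it with the block (adjusted p = 0.00813) and by DESeq2 (adjusted p = 0.0465). Ccr1 was lower in DAM-like than in homeostatic-like microglia (log2 fold change -1.34, SE 0.27, edgeR adjusted p = 0.000257, 7 sets), or pooled levels of 0.0480 (48 UMIs) and 0.164 (710 UMIs). In the HPC sets alone the call was lost (-1.49, adjusted p = 0.070). The differences of interferon-like (-0.53, edgeR adjusted p = 0.327) and MHC class II-like cells (-0.41, adjusted p = 0.282) missed the threshold. For interferon-like cells the thalamus sets alone passed it (-1.34, adjusted p = 0.0262), and states set after thinning gave -2.81 (adjusted p = 0.129). Cxcr4 in microglia-like cells amounted to 66 UMIs in the thalamus and 38 in the HPC. Thalamus sets were at 0.0207, 0.0201, 0.0128 and 0.0120 and HPC sets at 0.0150, 0.0051, 0.0011 and 0.0020. HPC set 1 lay among the thalamus sets. The difference of 1.3 on the log2 scale (SE 0.56, edgeR adjusted p = 0.155) passed the threshold with the block (1.46, adjusted p = 0.0229) and without HPC set 1 (2.44, adjusted p = 0.00535). Pooled Cxcr4 was 0.0390 in DAM-like and 0.0396 in MHC class II-like against 0.00347 in homeostatic-like microglia, on 39, 20 and 15 UMIs.

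Ccr2 (chromosome 9, 124101950 to 124113557), the CCL2 receptor with which inflammatory monocytes leave the bone marrow, was highest in monocyte-like cells at 9.93 in HPC set 1 and 9.34 and 15.0 in thalamus sets 1 and 2. Type 17 gamma-delta-like T cells came next. Their HPC sets were at 6.86, 8.05 and 7.12 and their thalamus sets at 5.63, 7.21, 5.17 and 7.39. Regulatory-like T cells were at 4.42 in HPC set 1 and at 4.79, 6.15 and 5.50 in thalamus sets 1, 2 and 4, under the gamma-delta-like cells of the same set in 4 of 4 sets. Pooled levels were 5.22 in border-associated macrophage-like, 4.10 in conventional dendritic-like, 3.59 in NK-like, 2.62 in CD4-like and 1.13 in CD8-like T cells. Of the border-associated macrophage-like UMIs, 19, 12 and 14 lay in 1 cell each of HPC set 3 and thalamus sets 1 and 2. In contrast, Ccr2 was 0.0362 (5 UMIs) in neutrophil-like cells. Thinned shares of cells with Ccr2 were 73.6% in type 17 gamma-delta-like and 65.3% in monocyte-like cells, against 0.676% in neutrophil-like cells (86.3%, 88.6% and 0.715% unthinned, median depths 3418, 7255 and 1911). Its level in T-like cells did not differ detectably between the regions (-0.12, edgeR adjusted p = 1.0).

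Microglia-like cells held Ccr2 at 0.0572, against 10.7 in monocyte-like cells. MHC class II-like microglia were at 0.358 (181 UMIs), ranging from 0.0589 in HPC set 3 to 1.00 in thalamus set 3. A Ccr2 UMI was found in 6.17% of these 810 cells (unthinned), and the 27 UMIs of thalamus set 3 lay in 3 of 43 cells. The 7 monocyte markers summed to 1.67 (1.5 to 1.96 over sets) there in the thalamus and 1.63 (0.412 to 6.02) in the HPC, against 0.191 and 0.143 in homeostatic-like microglia, and all 7 had a UMI in the thalamus and 5 in the HPC. Their part in the Ccr2 level was not tested. In T-like, microglia-like and homeostatic-like cells, Ccr2 was not called between regions under any alternative run.

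T-like cells split by receptor. Subsets were set by UMIs of Cd4 (647 CD4-like cells), Cd8a or Cd8b1 (163 CD8-like), Foxp3 with other regulatory genes (238), or at least 4 of 10 type 17 gamma-delta genes such as Trdc and Il17a without Cd4, Cd8 and Foxp3 (848), and 644 cells had no subset marker. CXCR6 binds CXCL16 and marks tissue-resident and effector T cells, CXCR3 binds the interferon-induced ligands CXCL9 and CXCL10 and marks type 1 responses, and CCR6 binds CCL20 and marks type 17 cells. Cxcr6 (chromosome 9, 123806475 to 123811760) in type 17 gamma-delta-like cells was 20.6, 22.3 and 22.6 in HPC sets and 17.8, 21.5, 20.4 and 22.7 in thalamus sets. In CD4-like cells it was 10.7, 12.1 and 10.8 in HPC sets, and 10.7, 10.7 and 8.58 in thalamus sets. The groups did not overlap: in 6 of 6 sets the gamma-delta-like cells were higher, by 10.7 ± 2.29 (SD) per 10000 (exact sign-flip test, p = 0.0313, the smallest 6 sets can give, adjusted p = 0.397). CD8-like cells were at 7.36 (6.72 to 8.04), regulatory-like cells at 3.04 (2.70 to 3.42) and NK-like cells at 0.947 (0.688 to 1.27), pooled. After thinning, 97.5% of type 17 gamma-delta-like, 75.1% of CD4-like and 34.4% of regulatory-like cells had a Cxcr6 UMI, against 0.742% of microglia-like cells (99.4%, 85.3%, 42.9% and 1.79% unthinned).

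Cxcr3 (chromosome X, 101731535 to 101734269) was lowest in these cells among the T-like subsets. It was 0.175 (0.131 to 0.229) in type 17 gamma-delta-like cells and 1.85 in CD8-like, 1.67 in T-like cells without a subset marker, 1.56 in regulatory-like, 1.37 in CD4-like and 0.925 in NK-like cells. Ccr6 (chromosome 17, 8236043 to 8257141) was low in the type 17 gamma-delta-like cells too, at 0.106 (32 UMIs in 848 cells), with sets from 0 to 0.154. It was 1.49 (1.34 to 1.64) in CD4-like, 1.06 in regulatory-like and 0.848 (40 UMIs) in B-like cells, and 0.238 in CD8-like cells. Averaged over sets CD4-like cells led at 1.27. B-like cells, with 1 set of at least 20 cells, led at 1.46 under a 5% mitochondrial limit and at 1.59 with gates set after thinning. They also led at 2.03 by the mean over cells (CD4-like 1.39, 1.28 and 1.23). Microglia-like cells were at 0.0155 for Cxcr3 and 0.0381 for Ccr6. What part of such low levels came from other cells was not tested. Thinned shares of cells with Ccr6 were 1.58% in type 17 gamma-delta-like, 19.4% in CD4-like and 0.814% in microglia-like cells (2.95%, 28.3% and 1.82% unthinned), at median depths of 3418, 3745 and 4736.

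**Figure D3:**
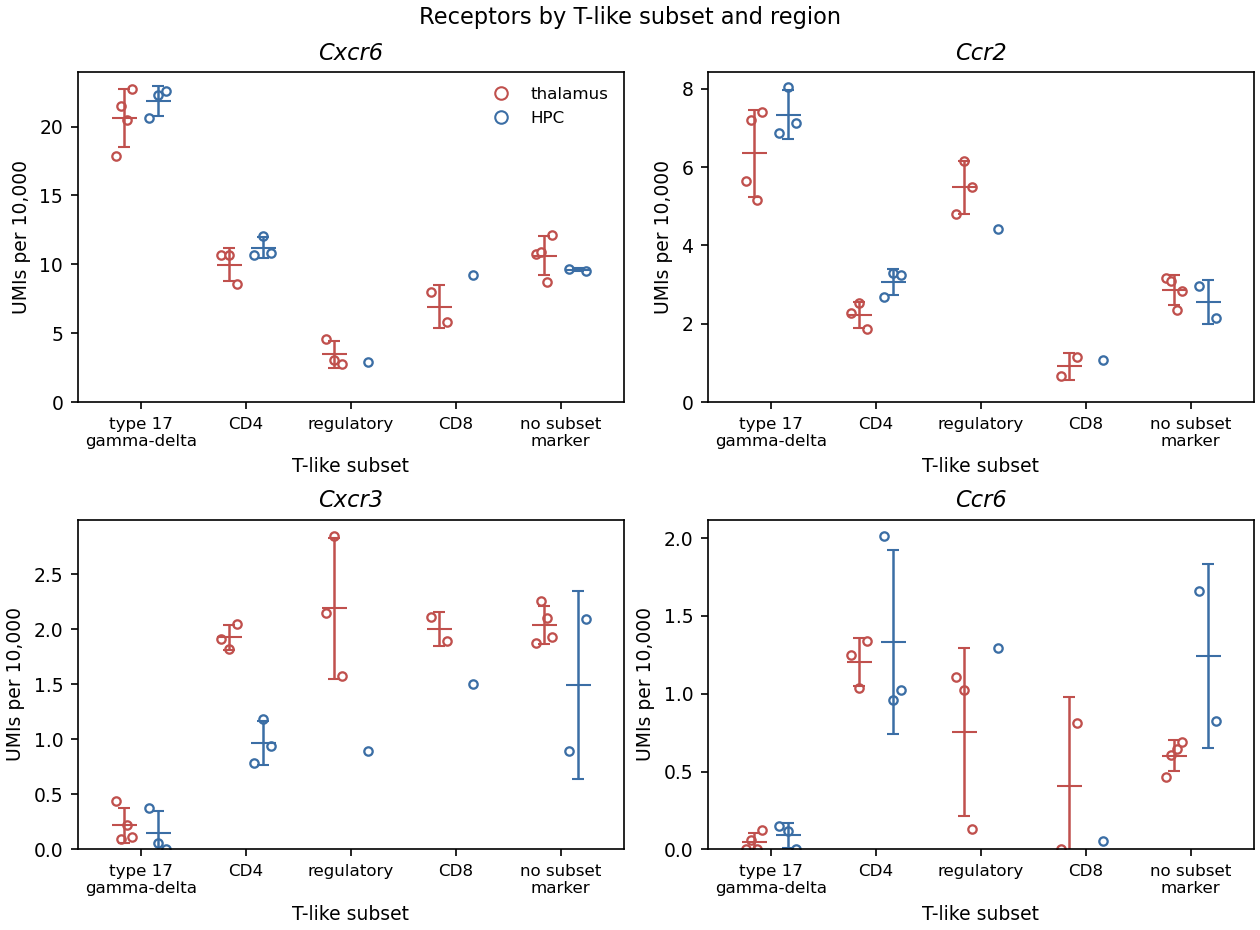
UMIs per 10000 of Cxcr6, Ccr2, Cxcr3 and Ccr6 in 5 T-like subsets, with 1 circle per set of at least 20 cells, red for the thalamus and blue for the HPC; lines are the mean and the SD where 2 or more sets were available. Type 17 gamma-delta-like cells are highest for Cxcr6 (17.8 to 22.7) and lowest for Cxcr3 (0 to 0.441), and their Ccr6 sets lie at 0 to 0.154.

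Few cells carried both Ccr6 and Cxcr3, a pair chosen after the values were seen. Among CD4-like cells in sets of at least 20, 177 of 626 had Ccr6 and 209 had Cxcr3, and 29 had both where the shares within each set give 55.1. The count was under that number in 6 of 6 sets. In T-like cells with no subset marker 13 of 617 cells had both, where 32.3 were given by the shares, again lower in 6 of 6 sets. In regulatory-like cells the 2 numbers were close, 18 and 18.8. The cells share their sets, and no test was made. Ccr2 and Cxcr6 met in 728 of 848 type 17 gamma-delta-like cells, as many as their shares give.

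Between regions, thalamus T-like cells had Cxcr3 at 1.72, 1.62, 1.66 and 0.785 and HPC T-like cells at 0.789, 1.22, 1.48 and 0.740. Thalamus set 4 lay with the HPC sets, and 64.8% of its T-like cells were type 17 gamma-delta-like, against 14.9% in the thalamus set with fewest. The log2 fold change of 0.54 (SE 0.26) missed the threshold (edgeR adjusted p = 0.790, 0.183% of 8765 genes called, 16 genes). It passed with the block (0.63, adjusted p = 0.0120, 1.7% called). Without type 17 gamma-delta-like cells, an alternative added after seeing the data, it was 0.74 (adjusted p = 0.0422, 0.414% called), and 0.71 with the block as well (adjusted p = 6.66e-05, 1.96% called). Without thalamus set 4 it also passed (0.82, adjusted p = 0.0426). In CD4-like cells alone the thalamus sets were at 1.91, 1.82 and 2.05 and the HPC sets at 0.786, 1.18 and 0.939, with no overlap among sets of at least 20 cells. HPC set 3, left out with 8 such cells, was at 2.71 (10 UMIs). In T-like cells with no subset marker the regions overlapped. There the HPC sets were at 0.891 and 2.10 and the thalamus sets ranged from 1.88 to 2.26.

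Ccr6 in T-like cells was 0.648, 0.627, 0.505 and 0.417 in thalamus sets, 1.32, 0.724, 0.656 and 0.571 in HPC sets. HPC set 1 was far above the others, and the regions overlapped. The difference of -0.79 on the log2 scale (SE 0.24, edgeR adjusted p = 0.336) passed with the block (-0.66, adjusted p = 0.0128) and was -0.29 (adjusted p = 0.960) without HPC set 1. Without type 17 gamma-delta-like cells it was -0.65 (adjusted p = 0.137), and with the block as well -0.62 (adjusted p = 0.00897). Of 18 alternatives run for Ccr6 in T-like cells, 3 passed the threshold. For Cxcr6, thalamus T-like cells were at 10.8, 12.3, 10.8 and 17.6, and HPC T-like cells at 11.2, 12.5, 11.0 and 14.6. The highest value was that of thalamus set 4, and the log2 fold change was 0.04 (edgeR adjusted p = 1.0).

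Cxcr6 in microglia-like cells was 0.0432, 0.0531, 0.0395 and 0.0558 in thalamus sets, above the 0.030, 0.0224, 0.0362 and 0.0260 of the HPC sets. It was higher in the thalamus by 0.81 on the log2 scale (SE 0.19, edgeR adjusted p = 0.025), a call that was lost without thalamus set 1, 2 or 4 or HPC set 2 or 4 (adjusted p = 0.0519 to 0.0788). The levels were a small part of the 13.1 in T-like cells. The 11 T cell markers, all with a UMI, summed to 0.469 (0.444 to 0.489) in thalamus and 0.261 (0.221 to 0.280) in HPC microglia-like cells, and T-like cells made up 13.1% and 7.63% of the cells. Their part in the Cxcr6 difference was not tested.

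**Figure D4:**
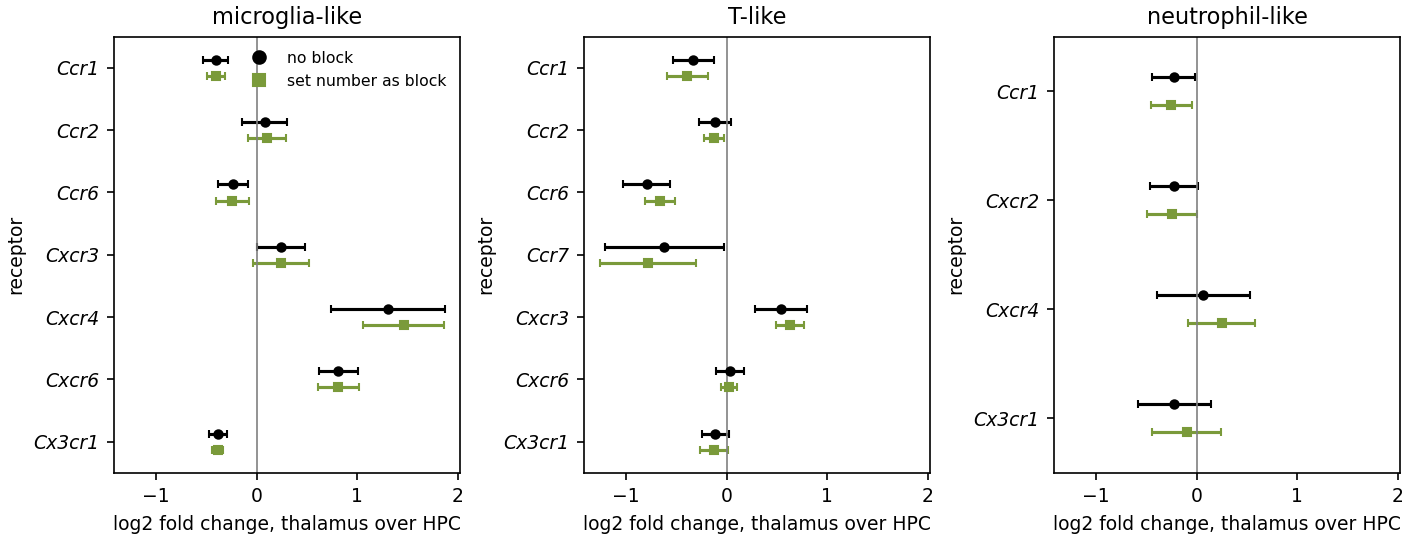
Log2 fold change of each receptor that passed the filter on low counts, thalamus over HPC, in microglia-like, T-like and neutrophil-like cells, from edgeR without (black circles) and with (green squares) the set number as a block; bars are the SE. Cx3cr1 is at -0.38 and Cxcr6 at 0.81 in microglia-like cells, and Cxcr3 at 0.54 and Ccr6 at -0.79 in T-like cells.

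Of the 9 receptors, 7 passed the filter on low counts in microglia-like, 7 in T-like and 4 in neutrophil-like cells. Without the block, 2 were called between regions in microglia-like cells by edgeR (Cx3cr1 and Cxcr6, with 12.2% of all genes called) and 3 by DESeq2 (also Ccr1). None was called in T-like or neutrophil-like cells by edgeR (0.183% and 0.0397% of all genes called), where 1 and 0 had an unadjusted p under 0.05 and DESeq2 called 0 and 0. With the block, 4 were called in microglia-like (also Ccr1 and Cxcr4, 27.8% of all genes called) and 2 in T-like cells (Cxcr3 and Ccr6, 1.7% called).

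Ccr7 (chromosome 11, 99144196 to 99155077), the receptor by which maturing dendritic cells and naive T cells reach lymph nodes, was 14.6 (13 to 16.3) in the 43 migratory dendritic-like cells, which were gated on genes such as Fscn1 and Ccl22. It was 17.2 (14.8 to 19.9) in 21 thalamus and 12.1 (10.1 to 14.3) in 22 HPC cells, with no set holding 20, so the regions were not compared. In every other class it was at or under 0.235, the level in regulatory-like T cells. Conventional dendritic-like cells were at 0.0528 (5 UMIs), and 1 UMI was found in the 848 type 17 gamma-delta-like cells. Thinned, 74.4% of migratory dendritic-like cells had a Ccr7 UMI (interval 58.8% to 86.5%), against 0.0443% of microglia-like cells (79.1% and 0.0807% unthinned, median depths 4974 and 4736).

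The ligands of the 9 receptors were followed as a list. Of 22 ligand genes analysed, 13 passed the filter in microglia-like cells and 6 were higher in the thalamus, with none lower, where 12.2% of all genes were called (8 with the block, 27.8% called). These were Ccl3 (2.07 on the log2 scale), Ccl4 (1.96), Ccl6 (1.75), Ccl2 (1.56), Ccl9 (1.11) and Mif (0.84), each with an edgeR adjusted p of 0.0178 or below. Ccl3, Ccl6 and Ccl9 encode ligands of CCR1, Ccl4 a related CC chemokine, Ccl2 a ligand of CCR2, and Mif a cytokine that also binds CXCR2 and CXCR4. The median of the 13 was 0.82, against -0.01 over all genes. In homeostatic-like microglia 2 of 11 were higher in the thalamus, Ccl2 by 1.40 and Ccl4 by 1.04, where 0.593% of all genes were called (with the block 5 were higher and Ccl5 was lower, with 488 genes called in all). In DAM-like microglia 3 of 10 were higher, Ccl9 by 1.44, Ccl6 by 1.13 and Ccl3 by 1.04, where 1.23% of all genes were called (with the block, 2.22%, Ccl4 was higher too and Ccl12 lower). By edgeR none was called in T-like or neutrophil-like cells, where 6 and 5 were tested and 0 and 3 had an unadjusted p under 0.05. Of genes that often answer to tissue dissociation, the 12 listed summed to 52.1 (48.0 to 57.8) in thalamus and 35.2 (32.6 to 39.4) in HPC homeostatic-like microglia, and their part in the ligand differences was not tested.

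Between states, 9 of 10 ligands tested were higher in DAM-like, 10 of 10 in interferon-like and 9 of 10 in MHC class II-like than in homeostatic-like microglia, where 40.2%, 19.9% and 22.2% of all genes were called. The medians were 1.67, 1.96 and 1.51, against -0.01 over all genes in each. In DAM-like cells Ccl3 (2.71), Ccl4 (2.56), Ccl6 (2.35), Mif (2.20) and Ccl5 (1.68) had the largest log2 fold changes. Mean Ccl4 rose from 1.40 to 7.24 per 10000. Interferon-like cells were led by Cxcl10 (5.65, from 0.0748 to 3.41 per 10000), a CXCR3 ligand, then Ccl12 (2.75), Ccl2 (2.70), Ccl5 (2.46) and Ccl4 (2.06). CXCL10 is interferon-induced and these cells were gated on interferon-response genes, so its rise is not independent of the gate. MHC class II-like cells were led by Ccl5 (3.04), Cxcl10 (1.82), Ccl6 (1.73), Mif (1.58) and Cxcl16 (1.52), the CXCR6 ligand. Scaled by total UMIs alone, Cxcl10 lost its call in DAM-like cells (0.87, adjusted p = 0.0563), and the other ligand calls kept direction and threshold.

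**Figure D5:**
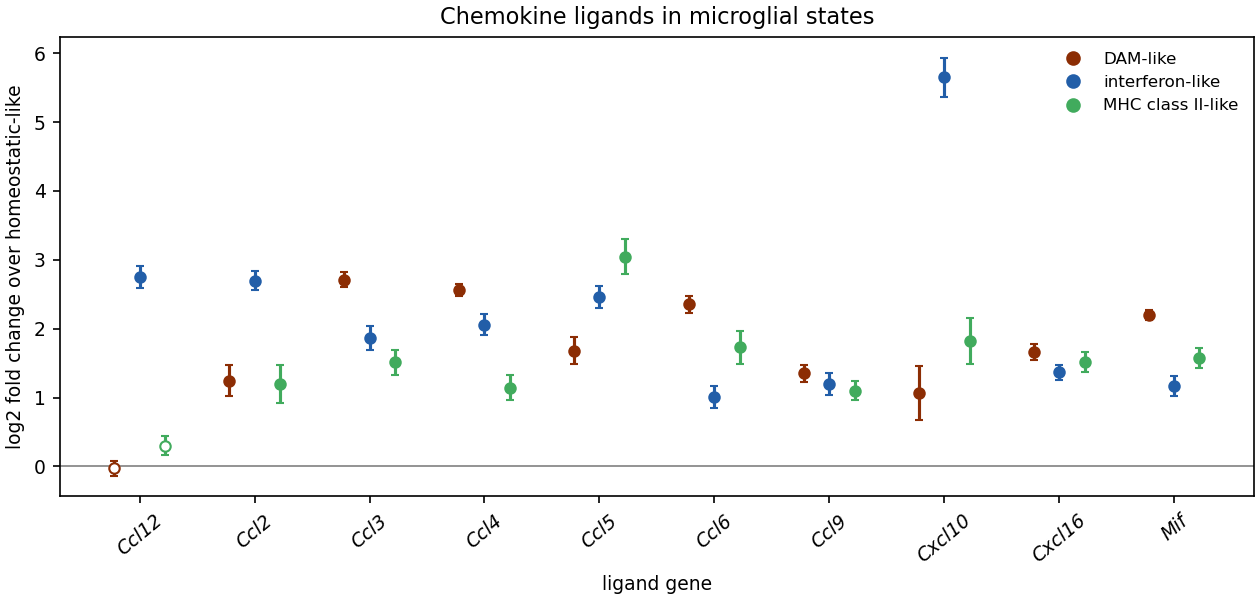
Log2 fold change over homeostatic-like microglia (edgeR, set as a block) of 10 chemokine ligand genes in DAM-like (brown), interferon-like (blue) and MHC class II-like (green) microglia; bars are the SE, and open circles did not pass an adjusted p of 0.05. Cxcl10 in interferon-like cells is the highest at 5.65, and the open circles are Ccl12 in DAM-like and MHC class II-like cells.

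Other cells held ligands as well. Ccl5 was 70.0 in migratory dendritic-like, 45.8 in CD8-like and 40.5 in NK-like cells, and Cxcl16 8.35 in migratory dendritic-like cells. Cxcl2, a CXCR2 ligand, was 7.20 in neutrophil-like cells. Ccl8, another CC chemokine, was 10.4 in border-associated macrophage-like cells. Ccl20, the CCR6 ligand, was 0.272 in CD4-like cells and under 0.05 in the other subsets. Ccl19 and Ccl21a, the CCR7 ligands, had no UMI in any class, which in microglia-like cells allows up to 0.000322 per 10000.

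Ccrl2, a chemerin-binding receptor that does not signal in the usual way, was higher in DAM-like (0.65, edgeR adjusted p = 0.00125) and interferon-like (0.67, adjusted p = 0.0151) than in homeostatic-like microglia. With the block it was also higher in thalamus than in HPC microglia-like cells (0.29), as was Ccr9 in thalamus T-like cells (1.25), and neither was called without the block. Of 6 other guidance receptors, the complement receptor C5ar1 was higher in thalamus microglia-like cells (0.33, adjusted p = 0.0302), a call lost when scaled by total UMIs alone (0.27, adjusted p = 0.0675), and with the block Fpr1 and Cmklr1 were lower. In DAM-like cells S1pr1, C5ar1 and Gpr183 were higher, and of these S1pr1 (1.28) alone stayed called by total UMIs, where Cmklr1 was lower. The region comparison of microglia-like cells called 12.2% of all genes, and 27.8% with the block. The DAM-like and interferon-like state comparisons called 40.2% and 19.9%.

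Genes that carry or end the receptor signal moved in both directions. Of 18 tested, 4 were higher and 9 lower in DAM-like microglia, 0 and 4 of 17 in interferon-like, and 1 and 3 of 17 in MHC class II-like cells, in comparisons that called 40.2%, 19.9% and 22.2% of all genes. Gng2, a G protein subunit, Pik3cg, the kinase it activates, and Rgs2, which ends G protein signals, were lower in all 3 states. In DAM-like cells their log2 fold changes were -0.66, -0.63 and -0.60. The 4 higher genes in DAM-like cells were Rgs1, Dock2, Rac2 and Gnb1, and Rac2 and Gnb1 lost their calls when scaled by total UMIs, which gave 2 higher and 12 lower. The same scaling gave 0 higher and 6 lower in interferon-like and 0 higher and 7 lower in MHC class II-like cells. In thalamus microglia-like cells Rgs1 was higher (0.56) and Pik3r5 lower (-0.36) of 18 tested, where 12.2% of all genes were called. With the block 2 were higher and 7 lower of 18, where 27.8% were called. Rgs1 was also higher in thalamus DAM-like cells (1.11, edgeR adjusted p = 0.00603), with Rgs10 (0.51), where 1.23% of all genes were called.

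The scaling mattered for the background of the state comparisons. Scaling by total UMIs in place of TMM factors, an alternative added after seeing the data, moved the median of all genes by -0.20 in DAM-like, -0.12 in interferon-like and -0.17 in MHC class II-like cells. The genes called higher and lower became 1448 and 3896 in place of 2281 and 1938, 875 and 1431 in place of 1190 and 740, and 871 and 2161 in place of 1313 and 862. In the region comparison of microglia-like cells they became 789 and 807 in place of 1038 and 544. Cx3cr1 remained lower, at -0.83, -0.46 and -0.66 in the 3 states.

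Genes with a profile most like each receptor over the 18 classes, subsets and states were taken by Pearson correlation of log2 levels among 4504 genes, as a description only, since the points share their cells' libraries. For Cx3cr1 they were Lgmn (r = 0.987), Gm5086 and Adap2os. For Cxcr2 they were S100a8 and S100a9, both markers of the gate, and Lrg1 (r = 0.982). Cxcr6 was followed by Krt83, the gate marker Cd3g and Bcl11b, and Cxcr3 by the gate marker Lck, Ubash3a and Sh2d1a (r = 0.968 to 0.987 for these 6). Ccr7 was followed by H2-M2, Dscaml1 and the gate marker Cacnb3, and Ccr2 by Ahnak (r = 0.945), Ifi203 and Capns1. Ccr1 (Gsn, Eif4ebp1, Gnai2), Cxcr4 (Gsr, Arg2, Trem3) and Ccr6 (Fam169b, Slamf1, Cpm) had looser likeness, at r = 0.826 to 0.938.

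Of the 9 genes, 4 lie on chromosome 9. Cxcr6, Ccr1 and Ccr2 follow each other within gaps of 150 and 133 kb, and Cx3cr1 lies 3737 kb before Cxcr6. The classes with the highest level differed for each of these 4 neighbours: type 17 gamma-delta-like T cells, neutrophil-like cells, monocyte-like cells and microglia-like cells.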

How the data were processed

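The deposited matrices held raw UMI counts per gene and cell, which per the file headers the authors made with Cell Ranger 7.1.0 (the methods name another version) on mm10 (GRCm38), without normalization. Whether intron reads were counted is not given in the sources used here. Multiplexing oligos were left out. That a matrix is the tagged set of 1 mouse follows from the methods (4 mice pooled per region) and not from the labels, so p-values measure the spread between these sets.

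Cells had 200 to 7500 genes and at most 2% mitochondrial counts, as in the study. A class needed 3 detected markers (5 of 8 for microglia), a detected share of its list 1.5 times that of the next class, and fewer than 3 markers of another lineage. This left out 2581 cells, 1212 for too few markers, 785 for a close second class and 584 for another lineage. No doublet caller was run, and the tags remove doublets of different sets only. Homeostatic-like cells had 6 of 8 homeostatic markers and few others; DAM-like, interferon-like, MHC class II-like and cycling-like cells had at least 5 of 11, 6 of 12, 4 of 6 and 4 of 10. Many cells lay at a cut (589 DAM-like at 5 markers, 768 microglia-like at 1 fewer). The DAM, interferon, MHC class II and cycling cuts were passed by 2130, 660, 896 and 112 cells. The states held 1546, 636, 810 and 112, because each cell was given 1 state. Cells past the DAM cut were thus not all DAM-like. Of the marker and ligand lists, 1 gene each is not analysed here, and 1 listed chemokine receptor is not reported here.

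Counts were summed per set and class (at least 20 cells) and tested with edgeR 4.0.16 in R 4.3.3 (TMM, filterByExpr, quasi-likelihood), with p-values adjusted by Benjamini-Hochberg across every gene that passed the filter, at a threshold of 0.05. It recovered seeded changes in simulated counts. State comparisons had the set as a block. For regions the set number was an alternative block: sets of the same number deviated together (r = 0.50, 0.13, 0.48 and 0.17 for sets 1 to 4), each best with its own number, so blocked values are given where a call changes. Sets of the same number may come from the same mouse, which the sources do not state. The main region tests treated all sets as independent. Other alternatives were DESeq2 1.42.0, other size factors, no filter, a 5% mitochondrial limit, stricter gates, gates after thinning, and leaving out each set. The genes named are the 9 receptors, their 3 most similar genes, and up to 5 called genes per list; Cxcl16, Cxcl2, Ccl8, Ccl20, Ccl19 and Ccl21a levels, Mif between regions, and Rgs1, Dock2, Rac2, Gnb1, the pairs of receptors in 1 cell and the genes named for a lost or gained call were added after their values were seen. The receptors, lists and tests were chosen with earlier results of these data known. Levels and exact tests used numpy 2.4.6, scipy 1.17.1 and pandas 2.3.3.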

Additional observations from a re-analysis of the deposited data

Results flagged for a closer look

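Dixon's test marked a set far from the others of its region in 4 of 38 groups of 4 or more sets, and chance alone marks about 1 in 20. Cx3cr1 in microglia-like cells of HPC set 1 was 28.4 per 10000, under the 32.4 to 33.1 of the other HPC sets, and in homeostatic-like microglia of the same set it was 30.3 against 34.0 to 34.7. Ccr7 in microglia-like cells was 0.0128 in HPC set 1, above the 0.0011 to 0.0030 of the others, and 18 of its 23 UMIs lay in 1 MHC class II-like cell. Cxcr3 in T-like cells was 0.785 in thalamus set 4, under the 1.62 to 1.72 of the other thalamus sets.

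Among 6 tests of whether a state effect differed between regions, Cx3cr1 in MHC class II-like against homeostatic-like microglia differed by -0.37 on the log2 scale (edgeR adjusted p = 0.0251), being lower in all 8 sets and further down in the thalamus. Cx3cr1 was 1 of 431 genes called among the 9783 tested there. The same test called 13 of 10493 genes for DAM-like and 186 of 9698 for interferon-like cells.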

How the results depend on the processing

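Over 30 receptor results and 473 alternatives, 428 kept direction and side of the threshold, 11 lost the call, 19 gained it and 15 turned direction. The turned values were all small: for Ccr2 between regions in microglia-like cells -0.013 (stricter gate) and -0.064 to 0.34 when each set was left out; in homeostatic-like microglia Ccr1 0.10 (gate after thinning) and -0.26 to 0.033 (sets left out), Ccr2 0.038 (thinning) and Ccr6 -0.094 (thinning) and -0.18 to 0.22 (sets left out); with sets left out, Cxcr6 in T-like cells -0.15 to 0.14 and Cxcr4 in neutrophil-like cells -0.22 to 0.22; Ccr1 0.11 in interferon-like (HPC sets alone) and 0.012 in MHC class II-like cells (stricter gate). The cause was not tested. Counts of called genes moved more. With the replicate block, they were 3611 in microglia-like, 488 in homeostatic-like, 207 in DAM-like and 149 in T-like cells, in place of 1582, 69, 115 and 16. The block changed no other receptor call than those given with the results. Without a filter, they were 211 in homeostatic-like, 246 in DAM-like, 136 in T-like and 19 in neutrophil-like cells (main 1), and by DESeq2 144 in homeostatic-like and 29 in T-like cells. T-like cells gave 1 after thinning, 32 without type 17 gamma-delta-like cells and 152 with the block as well. Of the state comparisons, DAM-like gave 1621 in the HPC alone (main 4219), interferon-like 705 after thinning and 806 in the HPC alone (main 1930), and MHC class II-like 1426 (stricter gate), 1160 (thinning) and 877 (HPC alone; main 2175). Leaving out each set gave 659 (HPC set 2) to 2813 (HPC set 1) in microglia-like, 24 to 439 in homeostatic-like, 58 to 114 in DAM-like, 6 to 25 in T-like and 0 to 3 in neutrophil-like cells, and 3629 to 4203, 1493 to 2008 and 1649 to 2228 in the DAM-like, interferon-like and MHC class II-like state comparisons. For the order of classes it gave 0 to 0 neighbouring pairs past the threshold, where a pair could hardly pass with so few sets. The class at the top by the mean of sets turned to B-like cells for Ccr6 in 3 of 4 alternatives and changed among T-like subsets for Cxcr3. The stricter and thinned gates could not be fitted for DAM-like and neutrophil-like cells between regions, which left too few sets of 20 cells. Classes under 20 cells per set (migratory dendritic-like, border-associated macrophage-like) and receptors at a few UMIs limit the rest.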
